A study of Mus musculus with 2 samples.

Results

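Transcripts of 7 synaptic adhesion genes were followed in single spiral ganglion neurons of mice, the nerve cells that carry sound signals from the cochlea to the brain. The genes are *Ntng1*, *Mdga1*, *Nrxn2*, *Nrxn3*, *Nlgn1*, *Nlgn2* and *Nlgn3*, and they are 7 of the 14425 genes listed in the expression table. They were selected on their measured values in these same libraries, so the levels given here are descriptions and no test was run. The table holds 2 libraries of tdTomato-sorted cells made with the 10x Genomics 3′ v3 assay, 1 per genotype. Cells of the library labelled iCON came from mice with the genotype Runx1-CreER/+; Ai14/+. Cells of the library labelled iCKO came from Runx1-CreER/Runx1F; Ai14/+ mice, in which the second *Runx1* allele is floxed. Both groups therefore carry the CreER allele at *Runx1*, which drives the recombinase only in cells that use that promoter, and the Ai14 tdTomato reporter. Both received tamoxifen on postnatal day 1 and were taken on postnatal days 27 to 29, with both sexes in each library. How many animals were pooled is not given in the sources used here.

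Neurexins (*Nrxn2*, *Nrxn3*) are presynaptic membrane proteins whose best known partners across the synaptic cleft are the neuroligins (*Nlgn1*, *Nlgn2*, *Nlgn3*). MDGA1 is a membrane-anchored immunoglobulin protein that binds neuroligins and keeps neurexins off them. Netrin-G1, the product of *Ntng1*, is anchored to the axon surface and binds the leucine-rich repeat protein NGL-1 on the partner cell. Type I spiral ganglion neurons receive input from inner hair cells and send their axons to the cochlear nucleus. They form subtypes that are told apart by RNA, with *Calb2* high in the Ia subtype and *Lypd1* in the Ic subtype, and RUNX1 is a transcription factor of the Ib and Ic subtypes.

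The promoters of *Ntng1* and *Mdga1* are shown because, of the 7 members, these differed most in iCON between cells with and without *Runx1* RNA. Each window runs from 250 bases before to 50 after the RefSeq start in GRCm38.p6. Both forms of the RUNX core motif, TGTGGT and TGCGGT, were searched on both strands, and they do not overlap each other. Capitals mark a match. The *Ntng1* window (chr3:110143423-110143722, minus strand) has 59.7% G or C and the *Mdga1* window (chr17:29887833-29888132, minus strand) has 71.3%, against a median of 52.7% over all 32851 windows. The RefSeq start of *Mdga1* lies 82205 bases inside the GENCODE M21 gene, at the 5′ end of 1 of its 4 coding transcripts, so the window is not that of the outermost start. The RefSeq start of *Ntng1* lies 539 bases inside its gene.
Ntng1: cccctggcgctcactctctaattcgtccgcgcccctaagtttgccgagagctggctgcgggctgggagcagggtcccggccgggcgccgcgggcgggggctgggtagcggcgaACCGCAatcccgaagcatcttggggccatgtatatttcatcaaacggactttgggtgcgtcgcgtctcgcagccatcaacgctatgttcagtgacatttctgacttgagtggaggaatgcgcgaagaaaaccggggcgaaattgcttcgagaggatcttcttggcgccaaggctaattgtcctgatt
Mdga1: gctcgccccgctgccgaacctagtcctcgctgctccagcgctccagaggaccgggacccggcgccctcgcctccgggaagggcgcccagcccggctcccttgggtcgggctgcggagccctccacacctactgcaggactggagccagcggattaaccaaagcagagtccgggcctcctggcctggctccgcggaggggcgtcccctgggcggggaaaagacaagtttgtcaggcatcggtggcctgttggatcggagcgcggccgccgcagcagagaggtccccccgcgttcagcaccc
The single match, to the opposite strand of TGCGGT in the *Ntng1* window, begins 137 bases before the start. TGCGGT is in 6.45% of all windows and TGTGGT in 16.8%. In the 8 windows matched to 5 members, TGCGGT was in 1 and TGTGGT in 0, which says only that these letters are not in those windows. *Nrxn2* and *Nlgn3* were not matched.

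iCON held 462 cells with a median of 49725.5 UMIs (unique molecular identifiers, counted RNA molecules) and iCKO 407 cells with a median of 33602. The libraries shared 0 cell barcodes. All 6 neuron markers were detected in at least 79.9% of cells of each library. The summed level of 9 Schwann or satellite glia genes was 38.1 UMIs per 10000 in iCON and 19.3 in iCKO, and 0 of the 9 were higher in iCKO. Cells with *Xist* and no Y-linked RNA were 54.5% of iCON and 78.4% of iCKO cells. Clusters held almost entirely by 1 library contained 1 iCON and 149 iCKO cells. *Runx1* RNA, the check of the labels, had a mean of 0.867 UMIs per 10000 in iCON and 1.12 in the library labelled iCKO, so it was not lower there. Both libraries are named by their labels, and every direction below compares labels and not cells with a measured loss of *Runx1*. Reads from the 3′ end cannot show whether an internal exon is missing.

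Levels are means over cells of UMIs per 10000 UMIs of the cell. A log2 ratio is taken between such means after adding 0.05 to each, and a ratio of at least 0.5 or at most -0.5 was counted as past the fold. Intervals are exact 95% counting intervals. Beside a log2 ratio, the interval is that of the ratio of summed UMIs without the added 0.05. Cells with more UMIs weigh more in summed UMIs. The interval therefore need not be centred on the ratio and can leave it out. Intervals do not cover differences between animals or preparations. Of the 7 members, 4 (*Ntng1*, *Mdga1*, *Nrxn2*, *Nlgn2*) passed a minimum of 0.5 per 10000 and 25% detection in a library, and *Nrxn3*, *Nlgn1* and *Nlgn3* did not. Levels of different genes are not compared with each other, since they are not given per length. Cells with at least 10 *Lypd1* UMIs per 10000 are called Lypd1-high. Of the rest, cells with at least 50 *Calb2* UMIs per 10000 are called Calb2-high and the others intermediate. These classes had 180, 154 and 98 cells in iCON and 126, 256 and 18 in iCKO. Outside them is a type II-like cluster with 30 iCON and 7 iCKO cells.

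In the plain comparison of the libraries, *Mdga1* was about doubled in iCKO and *Nrxn2* was moderately higher, while *Ntng1* and *Nlgn2* lay closer together. Mean *Mdga1* was 3.60 in iCON and 7.42 in iCKO, giving a log2 ratio of 1.03 whose counting interval ended at 1.09 and stayed above 1. It was 0.64 in cells with low myelin-gene RNA. Mean *Nrxn2* was 1.46 in iCON against 1.94, a log2 ratio of 0.40 (0.37 to 0.52). Mean *Ntng1* was 1.64 in iCON and 1.40 in iCKO, giving a log2 ratio of -0.23 (-0.33 to -0.17). Past the fold were 2 of 7 members in the higher direction, *Mdga1* and *Nrxn3*, and 0 in the lower. Of the 4 members past the minimum, 1 (*Mdga1*) was past the fold upwards and 0 downwards. Among the 3761 genes past the minimum, 1.62% were higher and 2.74% lower by that fold, and among all listed genes 0.977% and 2.41%. The members were chosen with this contrast in view, so nothing is read from their count.

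*Mdga1*, the inhibitor of neuroligin binding, separated the libraries most in Lypd1-high cells. There its mean was 2.10 in iCON and 5.80 in iCKO, and its median 1.92 and 5.84. The middle 80% of cells ran from 0.920 to 3.30 in iCON and from 2.02 to 9.77 in iCKO, so the libraries overlapped, with the iCKO median above the 90th percentile of iCON cells. The log2 ratio was 1.44 (1.37 to 1.54). In Calb2-high cells the means were 6.29 and 8.62, a log2 ratio of 0.45 that was 0.72 with a *Calb2* limit of 30 and 0.05 with a limit of 100. In intermediate cells they were 2.09 and 2.88, a log2 ratio of 0.46 from only 18 iCKO cells. That ratio was 0.23 without the clusters of 1 library and 0.71 with a *Calb2* limit of 100. Type II-like cells had means of 3.71 in iCON and 4.24 in iCKO. The Lypd1-high class also differed in *Calb2* itself, with a mean of 7.39 per 10000 in iCON and 47.7 in iCKO, and its part in the *Mdga1* values was not tested. In Lypd1-high cells the *Mdga1* log2 ratio was 1.54 in cells with *Xist*, 1.16 in cells with Y-linked RNA, 1.44 in cells with low myelin-gene RNA and 1.45 in those with high. Without the clusters of 1 library, which left 60 of the 126 iCKO cells, it was 1.13 (1.03 to 1.26).

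**Figure D1:**
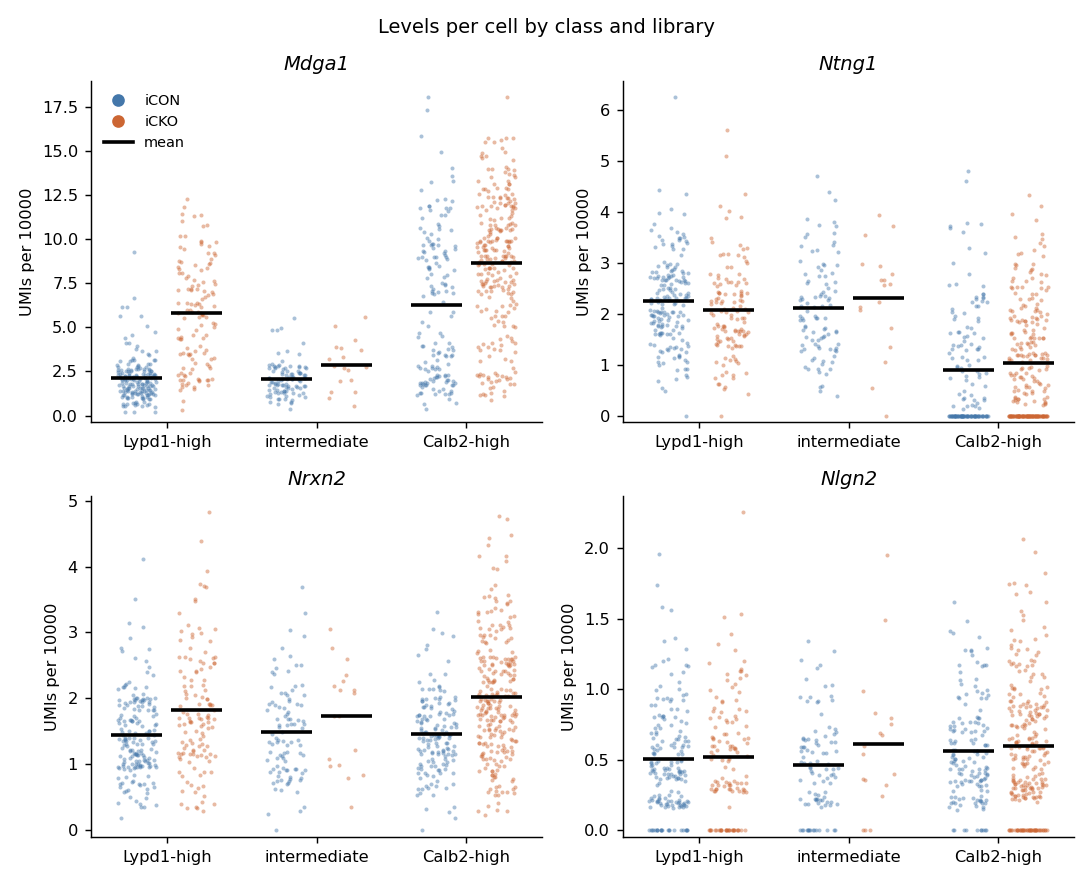
Level of 4 members in single cells (points, UMIs per 10000 on the vertical axis) by class and library, with the mean as a black line. *Mdga1* in Lypd1-high cells is at a mean of 2.10 in iCON and 5.80 in iCKO, *Ntng1* has many Calb2-high cells at 0, and the class means of *Nlgn2* run from 0.463 to 0.611.

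Within a library, Lypd1-high and Calb2-high cells differed in opposite directions for *Mdga1* and *Ntng1*. The Lypd1-high over Calb2-high log2 ratio of *Mdga1* was -1.56 in iCON and -0.57 in iCKO, and that of *Ntng1* was 1.29 and 0.97. Without the clusters of 1 library the *Mdga1* ratio in iCKO was -0.92, and with a *Calb2* limit of 100 the *Ntng1* ratio in iCON was 3.70. Past the fold in iCON were 2 of 7 members higher in Lypd1-high cells (*Ntng1*, *Nlgn1*) and 2 lower (*Mdga1*, *Nrxn3*), beside 2.74% and 2.84% of the genes past the minimum. In iCKO it was 1 higher (*Ntng1*) and 2 lower (*Mdga1*, *Nrxn3*), beside 1.81% and 1.65%. *Nlgn1* and *Nrxn3* were under the minimum. Of the 4 members past the minimum, 1 was higher (*Ntng1*) and 1 lower (*Mdga1*) in each library. For iCKO against iCON, 2 members were past the fold upwards in Lypd1-high cells (*Mdga1*, *Nrxn3*; background 1.89% higher and 2.53% lower) and 2 in intermediate cells (*Nrxn3*, *Nlgn3*; 3.4% and 4.84%). In Calb2-high cells it was 1 (*Nlgn1*; 0.957% and 1.57%). Those shares cover genes past the minimum. Of the 4 members past it, 1 (*Mdga1*) passed the fold upwards in Lypd1-high cells and 0 in the other classes. In each of the 3 classes 0 members were past the fold downwards. In subsets of the cells *Nlgn3* was, at -1.11 in Lypd1-high cells with low myelin-gene RNA against -0.04 in the whole class, and at -0.58 in Calb2-high cells with Y-linked RNA.

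*Mdga1* followed *Calb2* with a different course in each library. In iCON type I cells (those outside the type II-like cluster) its mean stayed between 2.03 and 2.15 while *Calb2* was below 50 per 10000. It was 2.81 in the *Calb2* band from 50 to 100 and 9.11 from 100 to 200, so nearly all of the difference lay between these bands. In iCKO the mean was already 3.49 in cells with *Calb2* below 1 per 10000, 4.81 between 10 and 50, and 5.58 between 50 and 100. The iCKO over iCON log2 ratio was 0.68 (0.51 to 0.97) in the band below 1 and 0.74 (0.52 to 1.02) from 1 to 10, with 15 and 16 iCKO cells. It was 1.22 (1.14 to 1.38) in the band from 10 to 50 and 0.98 (0.98 to 1.22) from 50 to 100. From 100 to 200 the means were 9.11 in iCON and 8.54 in iCKO, giving a log2 ratio of -0.09 (-0.08 to 0.09), and at 200 or more they were 9.12 and 10.2, a log2 ratio of 0.17 (0.07 to 0.21). The ratios thus ran from 0.68 to 1.22 in the 4 bands below 100 and were -0.09 and 0.17 in the bands above. Cells of a band were not matched for *Lypd1*. Mean *Lypd1* was 9.70 per 10000 in iCON and 23.8 in iCKO in the band from 10 to 50, and 1.225 and 13.3 from 50 to 100. Its part in the *Mdga1* ratios was not tested.

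*Ntng1* took the opposite course. Its mean in iCON lay between 2.19 and 2.24 while *Calb2* was below 50, at 1.83 in the band from 50 to 100, at 0.275 from 100 to 200 and at 0.00761 at 200 or more, where 46 cells held 2 UMIs in all. In iCKO the means were 2.08 to 2.31 below 50 and 1.97 from 50 to 100, close to iCON. Above that the iCKO cells held more *Ntng1* RNA. The mean was 1.37 from 100 to 200, a log2 ratio to iCON of 2.13 (1.75 to 2.55), and 0.440 at 200 or more, where 117 cells held 184 UMIs. For this last band the log2 ratio of summed UMIs was 5.83 with an interval of 3.96 to 8.89, since it rests on 2 UMIs in iCON. *Runx1* RNA moved with *Ntng1* in these bands, and its part was not tested. Mean *Runx1* was 0.196 in iCON and 1.30 in iCKO from 100 to 200, and 0.128 and 0.721 at 200 or more.

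**Figure D2:**
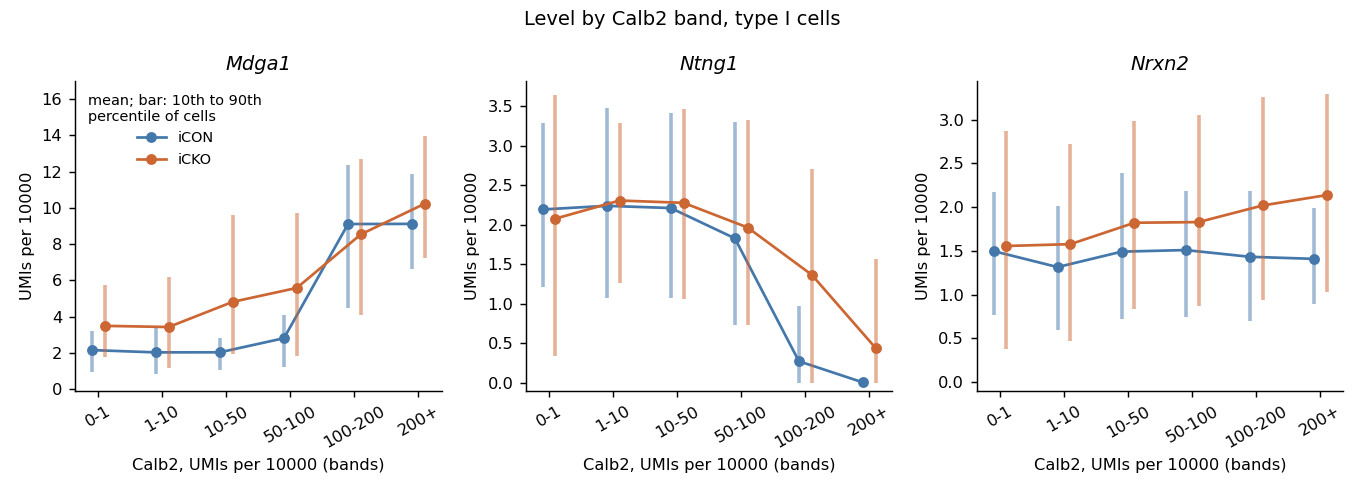
Mean level (points) and the 10th to 90th percentile of cells (bars) of *Mdga1*, *Ntng1* and *Nrxn2* in UMIs per 10000 by *Calb2* band, in type I cells of each library. The libraries part below 100 *Calb2* UMIs per 10000 for *Mdga1* and above 100 for *Ntng1*.

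By class, at the limits used, the *Ntng1* ratios between the libraries were smaller than in the upper *Calb2* bands. In Lypd1-high cells mean *Ntng1* was 2.25 in iCON and 2.08 in iCKO, giving a log2 ratio of -0.11, and in intermediate cells 2.12 and 2.31. In Calb2-high cells it was 0.893 and 1.03, a log2 ratio of 0.20, with mean *Calb2* at 145 and 186 per 10000. This value turned on the setting, at -0.13 with a *Calb2* limit of 30 and 2.32 with a limit of 100, and at 0.55 in cells with *Xist* against -0.02 in cells with Y-linked RNA. Type II-like cells held little, with means of 0.326 in iCON and 0.0675, from 1 UMI, in iCKO. Of the 3 classes, iCKO was the lower library in Lypd1-high cells, where the counting interval of -0.21 to 0.02 included 0. Without the clusters of 1 library the Lypd1-high ratio was 0.06. With equal weights for the 3 classes the ratio over all cells was 0.04, and in cells with Y-linked RNA it was -0.53. Calb2-high cells numbered 154 in iCON and 256 in iCKO, and the part of class sizes in the ratio over all cells was not tested. By *Lypd1* level, iCON cells with 30 to 60 per 10000 had a mean *Ntng1* of 2.27 and a mean *Mdga1* of 2.03, and iCKO cells of that band 2.15 and 5.22. With *Lypd1* below 1 per 10000 mean *Ntng1* was 1.27 in iCON and 1.04 in iCKO, and mean *Mdga1* 4.96 and 8.36.

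More iCKO than iCON cells were high in both *Ntng1* and *Mdga1*, by an amount that moved with the limits. With limits of 1 per 10000 for *Ntng1* and 5 for *Mdga1*, set after the values were seen, 9 of 432 iCON type I cells (2.08%, 0.957 to 3.92) reached both. In iCKO it was 144 of 400 (36%, 31.3 to 40.9). Cells that reached *Ntng1* only were 70.6% of iCON and 25% of iCKO, and cells that reached *Mdga1* only were 18.8% and 35.5%. Among Lypd1-high cells both limits were reached by 6 of 180 in iCON (3.33%) and 64 of 126 in iCKO (50.8%). Among Calb2-high cells it was 3 of 154 (1.95%) and 78 of 256 (30.5%), and among intermediate cells 0 of 98 (0 to 3.69%) and 2 of 18 (11.1%, 1.38 to 34.7). In Lypd1-high cells *Ntng1* only was reached by 163 of 180 in iCON and 49 of 126 in iCKO, and *Mdga1* only by 1 and 11. The share with both is thus not separate from the *Mdga1* difference between the libraries given above. Thinning every cell to 20000 UMIs gave a difference of 35.4 percentage points over type I cells, against 33.9 without thinning. It was 15.3 points with an *Ntng1* limit of 2, 41.2 with a limit of 0.5 and 27.4 without the clusters of 1 library. Across cells the Spearman correlation of the 2 genes was -0.44 in iCON and -0.48 in iCKO (432 and 400 cells that share a library each), while within Calb2-high cells it was -0.77 and -0.39 and within Lypd1-high cells -0.000776 and -0.27.

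**Figure D3:**
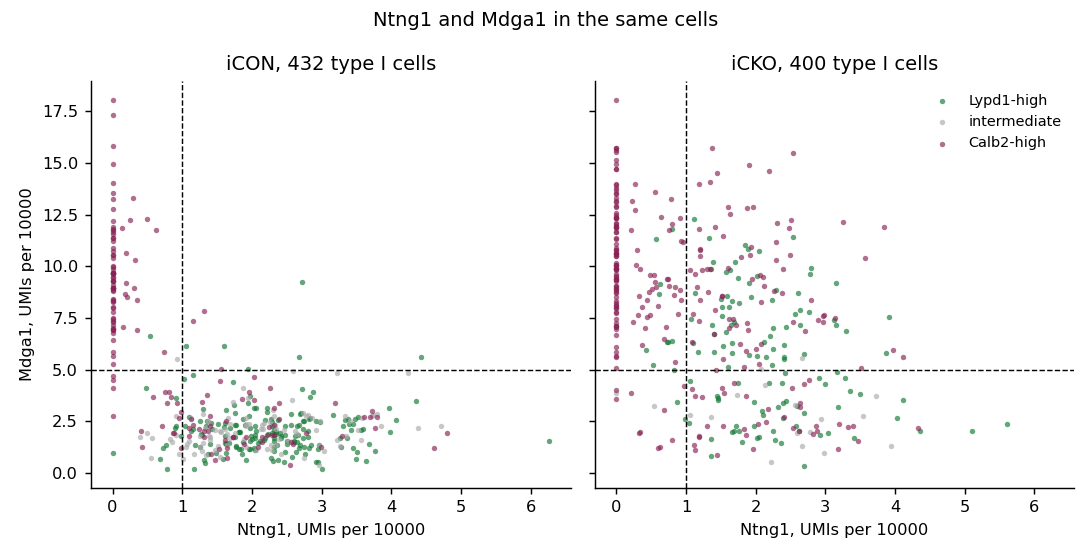
*Mdga1* against *Ntng1* in each type I cell, both in UMIs per 10000, coloured by class, with the limits of 5 and 1 per 10000 as dashed lines. The upper right quadrant holds 9 of 432 iCON cells and 144 of 400 iCKO cells.

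Cells with at least 1 *Runx1* UMI held more *Ntng1* RNA than cells without in both libraries, over all cells and within Calb2-high cells. The cells without *Runx1* RNA include the type II-like cells, 30 in iCON and 7 in iCKO. Mean *Ntng1* was 1.95 in the 373 iCON cells with *Runx1* RNA and 0.374 in the 89 without, a log2 ratio of 2.24. In iCKO it was 1.63 in 342 cells and 0.191 in 65, a log2 ratio of 2.80. The size depends on the amount added: with 0.5 in place of 0.05 the ratios were 1.49 and 1.62, and for summed UMIs with nothing added 2.76 (2.47 to 3.05) and 3.42 (2.93 to 3.96). The same comparison of *Mdga1* gave 2.80 against 6.94 in iCON, a log2 ratio of -1.29, and 7.0 against 9.60 in iCKO, a log2 ratio of -0.45. In iCKO cells with Y-linked RNA, of which 13 lacked *Runx1* RNA, the *Mdga1* ratio was 0.12. Past the fold in iCON were 1 member higher (*Ntng1*) and 1 lower (*Mdga1*), beside 6.33% and 5.05% of genes past the minimum, and in iCKO 2 higher (*Ntng1*, *Nlgn1*) and 0 lower, beside 1.62% and 1.52%. Of the members past the minimum, 1 was higher and 0 lower in iCKO. The iCKO *Nlgn1* ratio was 0.72, from 12 UMIs in the cells without *Runx1* RNA, and 0.17 with 0.5 added. It was also not past the fold after thinning or in cells with low myelin-gene RNA. Within type I cells the *Ntng1* log2 ratio was 2.16 in iCON and 2.72 in iCKO, that of *Mdga1* -1.60 and -0.55, and that of *Nrxn3* -0.84 and -0.57. *Mdga1* and *Nrxn3*, which was under the minimum, were thus past the fold downwards in both libraries once the type II-like cells were left out. Among genes past the minimum, 2.45% were then higher and 1.54% lower in iCON, and 1.57% and 0.665% in iCKO. In iCON cells with low myelin-gene RNA, type II-like cells included, the *Mdga1* ratio was -0.83 and that of *Nrxn3* had the other sign, 0.28. The *Nrxn3* ratio was also above 0 in iCKO cells with Y-linked RNA, at 0.40. Absence of a *Runx1* UMI is not absence of *Runx1* RNA, and iCON cells held more UMIs each. Free RNA in a droplet can also leave a stray UMI. The type II-like cells held 0 *Runx1* UMIs, at median totals of 31229 UMIs in iCON and 20915 in iCKO, and with at least 2 *Runx1* UMIs against 0 the *Ntng1* ratio was 2.31 in iCON and 2.90 in iCKO.

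Among type I cells outside the Calb2-high class few lacked *Runx1* RNA, and no direction of *Ntng1* could be read from them. In iCON Lypd1-high cells mean *Ntng1* was 2.24 in 176 cells with *Runx1* RNA and 2.71 in 4 without, a log2 ratio of -0.27 (-0.59 to 0.48), and in intermediate cells 2.11 in 95 and 2.19 in 3, a log2 ratio of -0.05. For summed UMIs the intermediate ratio had the other sign, 0.34 (-0.35 to 1.13). In iCKO Lypd1-high cells mean *Ntng1* was 2.11 in 123 and 0.894 in 3, a log2 ratio of 1.20 (0.12 to 2.70). These 3 cells held 6 *Ntng1* UMIs, and the counting interval does not cover differences between cells. Only 1 iCKO intermediate cell lacked *Runx1* RNA. The Calb2-high class held enough cells of both kinds. In iCON mean *Ntng1* was 1.29 in 102 Calb2-high cells with *Runx1* RNA and 0.117 in 52 without, a log2 ratio of 3.01. In iCKO it was 1.27 in 202 and 0.171 in 54, a log2 ratio of 2.57. The 54 cells held 27 *Ntng1* UMIs, in 9.26% of them. Between the libraries, the *Ntng1* log2 ratio was -0.02 (-0.11 to 0.19) in the Calb2-high cells with *Runx1* RNA and 0.41 in those without, from 22 UMIs in iCON and 27 in iCKO and with a counting interval that included 0. Over all type I cells without *Runx1* RNA it had the opposite sign, -0.81 (-1.38 to -0.12). Of the 70 iCON UMIs behind that value, 31 lay in 4 Lypd1-high cells and 17 in 3 intermediate cells. After thinning, an *Ntng1* UMI was found in 68.6% and 72.3% of cells with *Runx1* RNA and in 12% and 7.41% of those without, against 36.7% and 14.3% of type II-like cells. For comparison, 46 iCON cells with *Calb2* at 200 or more held 2 *Ntng1* UMIs in all. How much of the shares without *Runx1* RNA or of the type II-like shares is stray RNA was not tested, and they are not read as expression. *Calb2* moved with this division, with means of 119 and 197 per 10000 in iCON and 171 and 239 in iCKO for cells with and without *Runx1* RNA, and its part in the *Ntng1* values was not tested. *Mdga1* in the same cells was 4.70 with and 9.42 without *Runx1* RNA in iCON, a log2 ratio of -0.996, and 8.10 with and 10.6 without it in iCKO, where the log2 ratio was -0.38. The iCKO over iCON log2 ratio of *Mdga1* was 0.78 among Calb2-high cells with *Runx1* RNA and 0.17 among those without. Mean *Calb2* differed between the libraries here too, at 119 in iCON and 171 in iCKO with *Runx1* RNA and 197 and 239 without. Its part in these *Mdga1* ratios was not tested.

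**Figure D4:**
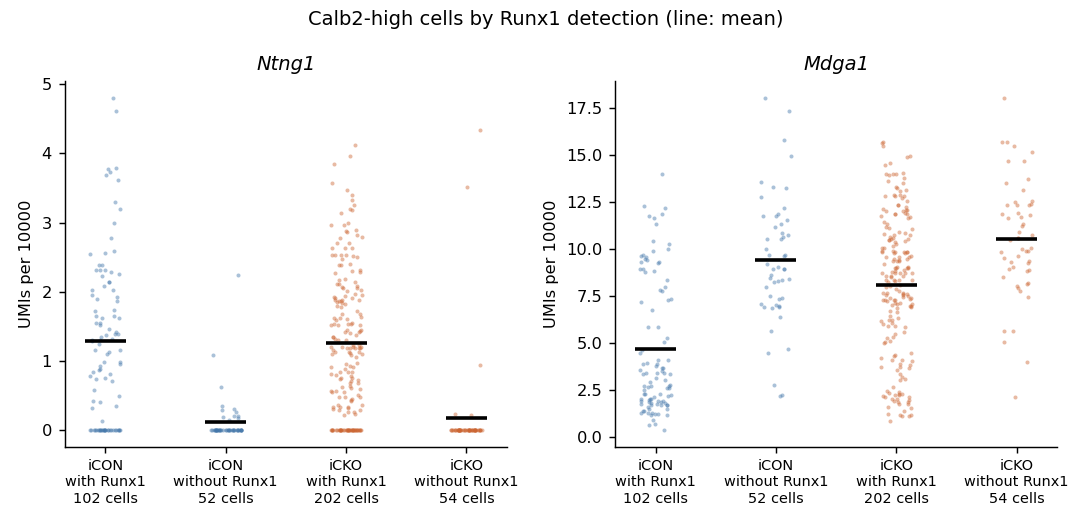
*Ntng1* and *Mdga1* in Calb2-high cells (points, UMIs per 10000) with and without a *Runx1* UMI in each library, with means as lines. *Ntng1* is at 0 in most cells without *Runx1* RNA of both libraries, and *Mdga1* with *Runx1* RNA is at 4.70 in iCON and 8.10 in iCKO.

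Among the neurexins, *Nrxn2* was higher in iCKO in Lypd1-high and Calb2-high cells, and its means with and without *Runx1* RNA were close. Its mean was 1.44 in iCON and 1.82 in iCKO in Lypd1-high cells (log2 ratio 0.33, interval 0.25 to 0.51) and 1.46 and 2.03 in Calb2-high cells (0.46, 0.39 to 0.61). In intermediate cells, 18 of them in iCKO, it was 1.49 and 1.74, a log2 ratio of 0.21 whose interval of -0.0073 to 0.60 included 0. In iCON its means over the *Calb2* bands ran only from 1.31 to 1.51, while in iCKO they ran from 1.56 in the lowest to 2.14 in the highest band. Cells with and without *Runx1* RNA had means of 1.46 and 1.49 in iCON and 1.94 and 1.95 in iCKO. The middle 80% of all cells, 0.712 to 2.21 in iCON and 0.806 to 3.12 in iCKO, overlapped widely. Over all cells the log2 ratio was 0.43 in cells with *Xist* and 0.29 in cells with Y-linked RNA. The ratio lay close to the fold and passed it in some settings. In Calb2-high cells it was 0.51 after thinning, 0.51 without the clusters of 1 library, 0.52 with a *Calb2* limit of 100 and 0.54 in cells with low myelin-gene RNA. In intermediate cells it was 0.53 after thinning and 0.11 without the clusters of 1 library, and in Lypd1-high cells with low myelin-gene RNA 0.14.

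*Nrxn3* was sparse, with a lower mean in Lypd1-high than in Calb2-high cells of both libraries. It had 117 UMIs in iCON and 148 in iCKO, whose cells held fewer UMIs, with means of 0.0512 and 0.103 and a log2 ratio of 0.59 (0.66 to 1.38 for summed UMIs, without the added 0.05). After thinning, 8.15% of iCON and 17.5% of iCKO cells held a UMI. The log2 ratio was 0.32 in cells with *Xist*, 0.99 in cells with Y-linked RNA and 0.36 in cells with low myelin-gene RNA, so it passed the fold in only some of the cells. In Calb2-high cells it was -0.16 in cells with *Xist* and 1.09 in cells with Y-linked RNA, and in the Lypd1-high class 0.67, with 0.22 in its cells with *Xist* and 0.41 with a *Lypd1* limit of 20. With 0.5 added in place of 0.05 the ratio was 0.13 over all cells, 0.10 in Lypd1-high and 0.21 in intermediate cells, under the fold in each. In Lypd1-high cells it was 1.38 with 0.01 added and 2.12 (1.12 to 3.20) for summed UMIs with nothing added. Its mean was 0.0132 in iCON Lypd1-high cells, from 13 UMIs, and 0.0995 in Calb2-high cells, and in iCKO 0.0506, from 27 UMIs, and 0.128. The type II-like cells held 1 UMI in iCON and 0 in iCKO. In the *Calb2* band from 100 to 200 the order of the libraries was the other way, 0.144 in iCON and 0.0866 in iCKO, with an interval of the log2 ratio from -1.49 to 0.12.

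Among the neuroligins, *Nlgn2*, best known from inhibitory synapses, differed little between the libraries over all cells. Its mean was 0.505 in iCON and 0.572 in iCKO, giving a log2 ratio of 0.17 (0.05 to 0.32), and its class means ran from 0.463 to 0.565 in iCON and from 0.522 to 0.611 in iCKO. After thinning the log2 ratio was 0.02. In intermediate cells it was 0.37 (-0.07 to 0.96), with 0.78 in those with *Xist* and -0.03 after thinning. *Nlgn1*, best known from excitatory synapses, was sparse, with 166 UMIs in iCON and 150 in iCKO and means of 0.0788 and 0.110. In iCON its mean was 0.116 in Lypd1-high cells and 0.0413 in Calb2-high cells, and in iCKO 0.143 and 0.0956. The iCKO over iCON log2 ratio was 0.22 in Lypd1-high cells (-0.14 after thinning), whose interval for summed UMIs included 0, and 0.67 in Calb2-high cells, whose interval did not. The latter was 0.14 with 0.5 added in place of 0.05 and 1.04 with 0.01, so the call rests on the amount added. *Nlgn3*, an X-linked neuroligin, had 94 and 50 UMIs and means of 0.0439 and 0.0383, a log2 ratio of -0.09 (-0.76 to 0.28), so no difference was detectable at this depth. Its log2 ratio of 0.74 in intermediate cells rests on 6 iCKO UMIs and was 0.15 with a *Calb2* limit of 100 and 0.16 with 0.5 added.

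**Figure D5:**
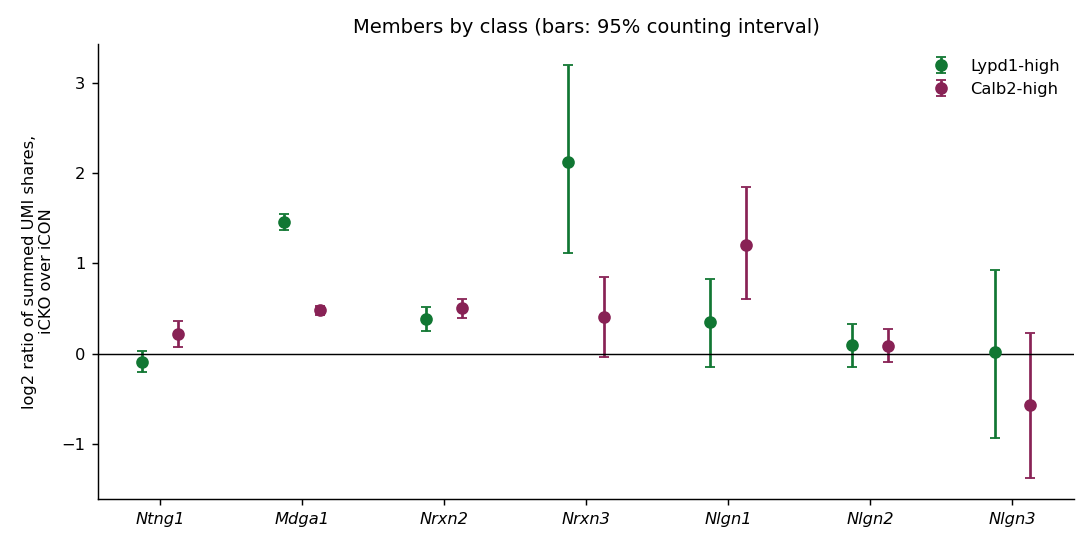
Log2 ratio of summed UMI shares, iCKO over iCON, for each member in Lypd1-high and Calb2-high cells, with 95% counting intervals as bars and no pseudocount. *Mdga1* in Lypd1-high cells has an interval of 1.37 to 1.54, and the intervals of *Nrxn3*, *Nlgn1* and *Nlgn3* are wide.

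The genes whose levels over type I cells were most like those of a member were ranked by the lower of the Spearman correlations in both libraries, among 8423 genes, as a description over 432 iCON and 400 iCKO cells. For *Ntng1* they were *Cdk14* (0.56 in iCON and 0.59 in iCKO), *Slc17a6*, a vesicular glutamate transporter (0.56 and 0.55), and *Cpne9* (0.56 and 0.53). For *Mdga1* they were *Calb2* (0.52 and 0.64), *B3gat1*, a glucuronyltransferase of the HNK-1 glycan (0.53 and 0.51), and *Tmem229b* (0.48 and 0.61). Within Lypd1-high cells the *Mdga1* correlation with *Calb2* was 0.02 in iCON and 0.56 in iCKO. *Nrxn2* reached 0.30 and 0.31 with *Map1b* and 0.30 and 0.32 with *Msi2*, and the other members reached 0.3 with no gene in both libraries. Cells of a library share their depth and preparation.

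Other genes of the same adhesion system were counted from lists. Of 77 genes in 8 lists of netrin-G, MDGA, neurexin and neuroligin partners, phosphatases and scaffolds, members included, 71 are in the table and 28 passed the minimum. Of these 28, 2 were past the fold upwards in iCKO over all cells, *Mdga1* and *Apba2*, and 0 downwards, beside 1.62% and 2.74% of all genes past the minimum. *Apba2* encodes a Mint adaptor that binds neurexin tails, and its mean was 0.663 in iCON and 1.07 in iCKO, giving a log2 ratio of 0.65. Its iCKO over iCON log2 ratio was 0.59 in Lypd1-high, 0.78 in intermediate and 0.56 in Calb2-high cells, and its Lypd1-high over Calb2-high log2 ratio was -0.88 in iCON and -0.85 in iCKO. In that iCON contrast 2 of the 28 were higher in Lypd1-high cells, *Ntng1* and *Adgrl2*, and 4 lower, *Mdga1*, *C1ql3*, *Apba1* and *Apba2*, beside 2.74% and 2.84%. The lists hold members chosen on these values, so nothing is read from these counts. *Adgrl2*, a latrophilin, had means of 0.712 and 0.306 there, and *C1ql3*, a secreted C1q-like protein, 1.69 and 2.72. The netrin-G1 receptor gene *Lrrc4c* was under the minimum, at 0.114 in iCON and 0.102 in iCKO.

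In GRCm38 (GENCODE M21) *Ntng1* lies on chromosome 3 from 109780040 to 110144011, *Mdga1* on chromosome 17 from 29827949 to 29970087, and *Nrxn2* on chromosome 19 from 6418731 to 6544169. *Nrxn3* lies on chromosome 12 from 88722876 to 90334935, *Nlgn1* on chromosome 3 from 25426215 to 26332460, *Nlgn2* on chromosome 11 from 69823122 to 69837784, and *Nlgn3* on chromosome X from 101299168 to 101325963. *Ntng1*, *Mdga1*, *Nlgn1* and *Nlgn2* are on the minus strand and the others on the plus strand. Annotated genes on the same strand overlap *Nrxn3* (3 genes), *Nlgn1* (1) and *Nlgn3* (1), and none of these is in the table. Only the gene at *Nlgn3* lies near the annotated 3′ end of the member, where this assay mainly reads. Counts of these sparse members are less certain where reads could be shared. The 3′ assay counts a gene as a whole and does not tell neurexin isoforms apart.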

How the data were processed

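Per the labels' protocols, tdTomato-positive cochlear cells were sorted and sequenced with the 10x Genomics 3′ v3 assay. The submitters' processing notes name Cell Ranger, Seurat and the mm10 build, without versions. Each deposited value is a natural log, taken of 1 plus the CPM in a cell, and 100% of nonzero values lay within 1e-06 of whole steps, so UMI counts were computed back. The authors' deposited cell annotation, a text label, assigns each barcode to a library. Counts refer to the 14425 listed genes.

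Levels, ratios and intervals were computed as given in the report with numpy 2.4.6, scipy 1.17.1 and pandas 2.3.3, and the ratio steps were tested on simulated data. With 1 library per genotype no test was run. Cells were clustered with scanpy 1.11.5 and leidenalg 0.10.2 (2000 variable genes, 20 components, 15 neighbours, resolution 0.5), and 1 cluster was named type II-like from its markers. Scrublet called 1 iCON and 4 iCKO cells doublets, which is a low share, and they were kept. For thinned shares each cell was cut to 20000 UMIs, which left out 8 iCON and 2 iCKO cells. Low myelin-gene RNA means under 2 per 10000. Positions come from GENCODE M21 and promoters from RefSeq. Pathway lists were named whole. Per member, the 3 genes most like it were named where the lower correlation was at least 0.3. The members, lists, classes and bands were chosen with earlier results of these data known. Values are given for few of the pathway genes, and the results of 1 are not reported here.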

Additional observations from a re-analysis of the deposited data

Results flagged for a closer look

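The *Nlgn3* log2 ratio between iCKO cells with and without *Runx1* RNA had opposite signs in the cells divided by sex-linked RNA. It was 0.74 where *Xist* but no Y-linked RNA was detected, from 37 UMIs in 267 cells against 1 UMI in 52 cells. It was -1.60 where Y-linked RNA but no *Xist* was detected, from 5 UMIs in 69 cells against 5 UMIs in 13 cells. The difference was not tested, and it rests on 6 UMIs in the cells without *Runx1* RNA.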

How the results depend on the processing

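Of 735 values of single members under alternative settings, 581 moved little, 154 moved beyond the counting interval and 0 called values among them changed sign. Ratios under the fold did change sign in some settings. For the *Runx1* division, *Nlgn3* in iCKO kept its sign in 7 of 13 settings and *Nrxn2* in 8 of 13 in each library. *Nlgn3* for iCKO against iCON in Lypd1-high cells kept it in 9 of 14. The counting intervals of the sparse members are wide. The number of the 7 members past the fold changed with the setting, through sparse and well-detected members alike. Members were past it upwards unless stated, and not every changed count is listed. With a pseudocount of 0.5 it was 1 for iCKO against iCON in all cells, 2 (1 higher and 1 lower) for Lypd1-high against Calb2-high cells in iCON, 1 in Lypd1-high cells, 0 in intermediate and 0 in Calb2-high cells, and 1 for the *Runx1* division in iCKO. A pseudocount of 0.01 gave 3 for the *Runx1* division in iCON (1 higher and 2 lower) and 3 in iCKO (2 higher and 1 lower). It gave 4 (2 higher and 2 lower) for Lypd1-high against Calb2-high cells in iCKO. Thinned cells gave 4 in Calb2-high cells, 3 in intermediate cells and 1 for the *Runx1* division in iCKO. Summed UMIs gave 3 in intermediate cells. Cells with *Xist* gave 1 in all cells, 1 in Lypd1-high, 4 in intermediate and 2 in Calb2-high cells, and 5 (3 higher and 2 lower) for the *Runx1* division in iCKO. Cells with Y-linked RNA gave 3 in all cells (2 higher and 1, *Ntng1*, lower) and 4 (3 higher and 1 lower) in Calb2-high cells. Low myelin-gene RNA gave 1 in all cells, 2 (1 higher and 1 lower) in Lypd1-high cells, 2 in Calb2-high cells and 1 for the *Runx1* division in iCKO, and high myelin-gene RNA gave 4 in intermediate and 2 in Calb2-high cells. A *Lypd1* limit of 20 gave 1 in Lypd1-high cells, and *Calb2* limits of 30 and 100 gave 2 and 3 in Calb2-high cells. Chosen after seeing the data, leaving out the type II-like cluster gave 4 (2 higher and 2 lower) for the *Runx1* division in iCKO and leaving out clusters of 1 library gave 2 in Calb2-high cells. The cause of these moves was not tested. The share of all genes past the minimum that passed the fold moved too, so nothing is read from these counts. Over the alternatives it ran from 1.38 to 7.02% in all cells, 1.52 to 7.23% in Lypd1-high, 2.1 to 12.2% in intermediate and 0.585 to 5.96% in Calb2-high cells. It ran from 2.58 to 7.76% in iCON and 1.86 to 10.6% in iCKO for the class contrast, and from 3.03 to 25% and 1.44 to 33.6% for the *Runx1* division.

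The difference in the share of cells with both *Ntng1* and *Mdga1* was 41.2 points with an *Ntng1* limit of 0.5, 15.3 with 2, 25.6 with an *Mdga1* limit of 7 and 27.4 without clusters of 1 library. Intermediate cells with Y-linked RNA, with low myelin-gene RNA or with a *Calb2* limit of 30 had under 10 cells in a library and are not among these values. In the 3 iCKO intermediate cells with Y-linked RNA the sign differed from the class for *Nrxn3*, at -0.93 against 0.84, and for *Nlgn1*, at -1.02 against 0.33, each from 0 UMIs against 12 in 53 iCON cells, and for *Nlgn2*, at -1.75 against 0.37, from 1 UMI. No paired analysis was possible because each genotype has 1 library. Depth limits *Nrxn3*, *Nlgn1* and *Nlgn3*, which had 50 to 166 UMIs per library.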
